A study of Mus musculus with 8 samples.

Results

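The regulators of calcineurin form a family of 3 mouse genes, Rcan1, Rcan2 and Rcan3, of 28786 genes and transcripts named on the array. The array carried 6 probes for them, 2 for each gene, among 41174 probes that were not controls. The probes were taken by gene name: the design of the array uses the older names Dscr1 for Rcan1, Dscr1l1 for Rcan2 and Dscr1l2 for Rcan3. Total RNA of primary smooth muscle cells, grown from aortas of C57BL/6 mice, was hybridised to 1-colour arrays, 1 array for each culture. Of the 8 cultures, 4 had received 1 µM angiotensin II together with 200 ng/ml cyclosporin A (AngII+CsA) and 4 had received 1 µM angiotensin II alone (AngII). Angiotensin II is a vasoconstrictor peptide, and all 8 cultures had it, so no array showed untreated cells and the comparison gives the difference that cyclosporin made on top of angiotensin II. Each replicate number, 1 to 4, occurs in both groups and marks a shared slide, so the arrays were also read as 4 pairs. A culture here means the treated cells of 1 array, and cultures are named by that number within their group. Whether the 2 arrays of a number came from one culture that was divided is not stated in the labels. The length of the treatment was not given in the sources used here. The study asked which genes regulated by angiotensin II are sensitive to cyclosporin.

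Calcineurin is a phosphatase that is switched on by calcium and calmodulin. It removes phosphate groups from the NFAT transcription factors, which then enter the nucleus and, often together with AP-1 proteins, switch on their target genes. Cyclosporin A, bound to the protein cyclophilin A, blocks calcineurin. RCAN proteins bind the catalytic subunit of calcineurin and can inhibit it. Rcan1 is itself a well-known target of calcineurin and NFAT: the gene has alternative first exons with a promoter each, and the short transcript from the internal promoter is the one that NFAT is known to induce, which makes a negative feedback loop. Rcan2 and Rcan3 encode related proteins that also bind calcineurin.

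The 6 probes are shown because each one reports on a different stretch of its gene, and the probes of one gene did not always give the same picture. Positions are those of the array's annotation, build mm7, and letters run 5′ to 3′ as on the array. An oligo here had 60 bases. A_51_P182116 and A_52_P369415 are printed whole, and the first 30 bases are given of the other 4. Whether a probe lies in a coding or untranslated part was not looked up for any of the 6. The probes printed whole and both Rcan3 probes had no stop codon in 2 of 3 frames, which does not show that they are coding. No part is in capitals, since no part of a probe was singled out.
Rcan1 A_52_P617327: tgggaactgttggttgagacagtttttcac
Rcan1 A_51_P182116: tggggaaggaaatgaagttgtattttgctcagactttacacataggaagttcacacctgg
Rcan2 A_52_P369415: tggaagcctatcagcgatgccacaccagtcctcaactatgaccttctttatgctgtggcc
Rcan2 A_52_P414464: cttgcatagtccttaagaactcagtgttct
Rcan3 A_52_P283524: ggggggtttcttttctatctatgcagataa
Rcan3 A_52_P547751: tactttggtgtgggtatttttgtacaggtg
Rcan1 A_52_P617327 matched chr16:92445136-92445195 on the minus strand. Rcan1 A_51_P182116 was annotated to chr16:92448616-92449912 on the same strand, a span of 1297 bases for a 60-base oligo, so the annotation splits it over more than 1 exon. It lies 3420 bases from A_52_P617327, on the side nearer to the start of the gene. The Rcan2 probes A_52_P369415 at chr17:42143611-42143670 and A_52_P414464 at chr17:42161715-42161774 are on the plus strand and 18044 bases apart. The Rcan3 probes A_52_P283524 at chr4:134791217-134791276 and A_52_P547751 at chr4:134794453-134794512 are on the minus strand and 3176 bases apart. No probe was assigned to one of the alternative transcripts here, and these positions cannot be set against those of another build.

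The starts of Rcan1 are shown next because the internal promoter is the known NFAT-responsive one. The sequences are the 250 bases before each start in RefSeq, build GRCm38.p6, minus strand, with 5′ to 3′ in the direction of transcription. Capitals mark the NFAT core GGAAA or its reverse complement TTTCC and the AP-1 motif TGANTCA, searched on both strands.
Rcan1 first start, chr16:92466170-92466419: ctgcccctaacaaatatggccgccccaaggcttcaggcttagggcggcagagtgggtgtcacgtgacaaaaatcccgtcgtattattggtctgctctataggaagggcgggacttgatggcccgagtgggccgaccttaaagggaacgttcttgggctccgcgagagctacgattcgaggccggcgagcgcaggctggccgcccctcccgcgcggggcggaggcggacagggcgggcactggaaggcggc
Rcan1 internal start, chr16:92400079-92400328: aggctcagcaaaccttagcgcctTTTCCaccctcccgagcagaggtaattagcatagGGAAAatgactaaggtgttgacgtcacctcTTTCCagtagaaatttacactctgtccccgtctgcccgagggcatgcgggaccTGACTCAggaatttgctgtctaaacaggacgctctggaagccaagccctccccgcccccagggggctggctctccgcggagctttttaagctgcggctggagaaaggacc
The internal start lies 66091 bases downstream of the first. Its window held 3 NFAT cores, whose first bases stand at -227, -193 and -163 from the start, and 1 AP-1 motif at -110. It also held the cyclic AMP response element TGACGTCA at -175, between the second and the third NFAT core, with no overlap. The window of the first Rcan1 start held 0 NFAT cores, 0 AP-1 motifs and 1 E-box CACGTG at -191. Among 32851 promoter windows of the same length, 55.6% held at least 1 NFAT core and 6.39% held 3 or more. The AP-1 motif was in 6.75% of the windows, the cyclic AMP response element in 1.55%, the E-box in 6.02%, and an NFAT core together with an AP-1 motif in 3.82%. Of the 3 annotated Rcan2 starts, 1 had 2 NFAT cores, 1 had none of the searched motifs, and 1 had an AP-1 motif at -25. The single Rcan3 window had 1 NFAT core at -214. Letters that match a motif are a description of the window and do not show that a factor was bound.

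**Figure D1:**
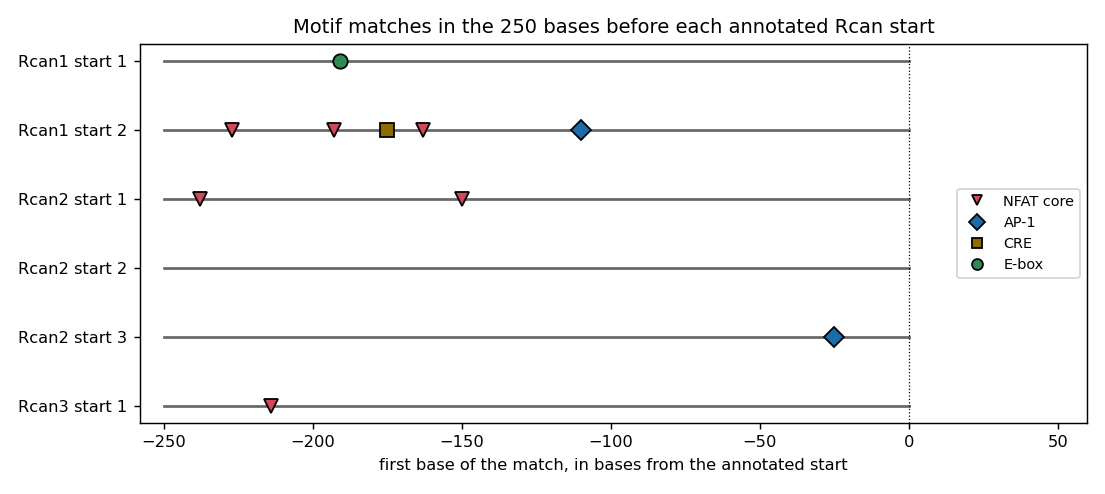
Matches to the NFAT core, AP-1, cyclic AMP response element (CRE) and E-box motifs in the 250 bases before each annotated start of Rcan1, Rcan2 and Rcan3, with the distance of the first base of each match from the start in bases on the horizontal axis. The internal Rcan1 start has 3 NFAT cores, 1 AP-1 motif and 1 CRE, and the first Rcan1 start has 1 E-box.

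On each array 42.8 to 51.7% of the 43379 spots that were not controls were well above background, and 0 were saturated. The arrays differed in brightness. The 75th percentile of the processed signal was lowest for number 3 (65.0 in AngII, 83.9 in AngII+CsA). It was highest for number 2 (125.6 in AngII, 124.6 in AngII+CsA). All 6 Rcan probes were well above background on all 8 arrays, so each had a measured value throughout, and the scanner software put their error at no more than 12.6% of the signal. The smooth muscle markers Tagln and Acta2 had mean levels of 8.68 and 7.51 log2 units in AngII+CsA cultures and 8.71 and 7.50 in AngII cultures. Of 6 endothelial markers, Pecam1 and Cdh5 were above background on 0 arrays, and 3 of the 6 were tested. Emcn, Vwf and Tek were dim, with differences of -0.36, -0.32 and -0.21, and Emcn and Vwf were lower in 4 of 4 pairs (adjusted p of 0.927 each in the limma fit with the pairs as a block). The summed level of these 3, as a multiple of the 75th percentile of the array, was 0.366 to 0.511 in AngII+CsA cultures and 0.477 to 0.668 in AngII cultures, and its part in the Rcan1 difference was not tested. The contractile gene Cnn1, another smooth muscle marker, averaged 5.56 in AngII+CsA cultures and 7.27 in AngII cultures. Its difference of -1.71, lower in 4 of 4 pairs, was the largest among these markers, and its part was likewise not tested. Of 7 smooth muscle markers 6 were tested. Lmod1 differed by -0.37, Smtn by 0.27 and Myh11 by 0.33, the last higher in 4 of 4 pairs. The fibroblast marker Pdgfra averaged 5.51 in AngII+CsA cultures and 5.74 in AngII cultures, lower in 4 of 4 pairs. Pi16, also a fibroblast marker, differed by -0.14. The macrophage markers Cd68 and Csf1r differed by 0.21 and -0.06. Of the T cell markers, Cd3e differed by -0.25, lower in 4 of 4 pairs, and Cd2 by 0.01. The striated muscle markers Tnnt3, Tnnt2 and Myod1 differed by -0.59, -0.26 and 0.03. Limma called none of these markers without or with the pairs as a block, and their part was not tested. Fewer expressing cells and less RNA per cell cannot be told apart in such bulk RNA. A level is the log2 signal of a probe with the 75th percentile of its own array subtracted, so a level of 0 is that percentile, and differences are AngII+CsA minus AngII on the same scale. Levels of different probes were not set against each other.

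Rcan1 was the member of the family whose level was lower with cyclosporin, at both of its probes. At A_52_P617327 the processed signal was 456, 623, 1084 and 854 in AngII+CsA cultures 1 to 4, against 2020, 2723, 3359 and 4220 in AngII cultures 1 to 4. The highest AngII+CsA value was below the lowest AngII value, so the groups did not overlap. On the log2 scale the levels were 2.15, 2.32, 3.68 and 2.83 in AngII+CsA cultures and 4.55, 4.44, 5.69 and 5.35 in AngII cultures. The means were 2.75 ± 0.69 in AngII+CsA cultures and 5.01 ± 0.61 in AngII cultures (SD, n = 4 each), a difference of -2.26, or 4.79-fold lower with cyclosporin. Within the pairs the differences were -2.39, -2.12, -2.01 and -2.52, so the drop was of much the same size in each of them.

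At the second Rcan1 probe, A_51_P182116, the processed signal was 26.0, 42.6, 43.7 and 42.6 in AngII+CsA cultures 1 to 4, against 52.7, 85.1, 117 and 144 in AngII cultures. Again the groups did not overlap, with culture 1 the lowest in both. The levels were -1.98, -1.55, -0.95 and -1.50 in AngII+CsA cultures and -0.71, -0.56, 0.84 and 0.48 in AngII cultures. The means were -1.49 ± 0.42 in AngII+CsA cultures and 0.01 ± 0.77 in AngII cultures (SD, n = 4 each), a difference of -1.51, or 2.84-fold lower. The within-pair differences were -1.26, -0.99, -1.79 and -1.97. This probe was dim: its signal was 2.72 to 5.00 times the lowest signal well above background on the same array in AngII+CsA cultures, and at least 6.06 times that in AngII cultures.

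**Figure D2:**
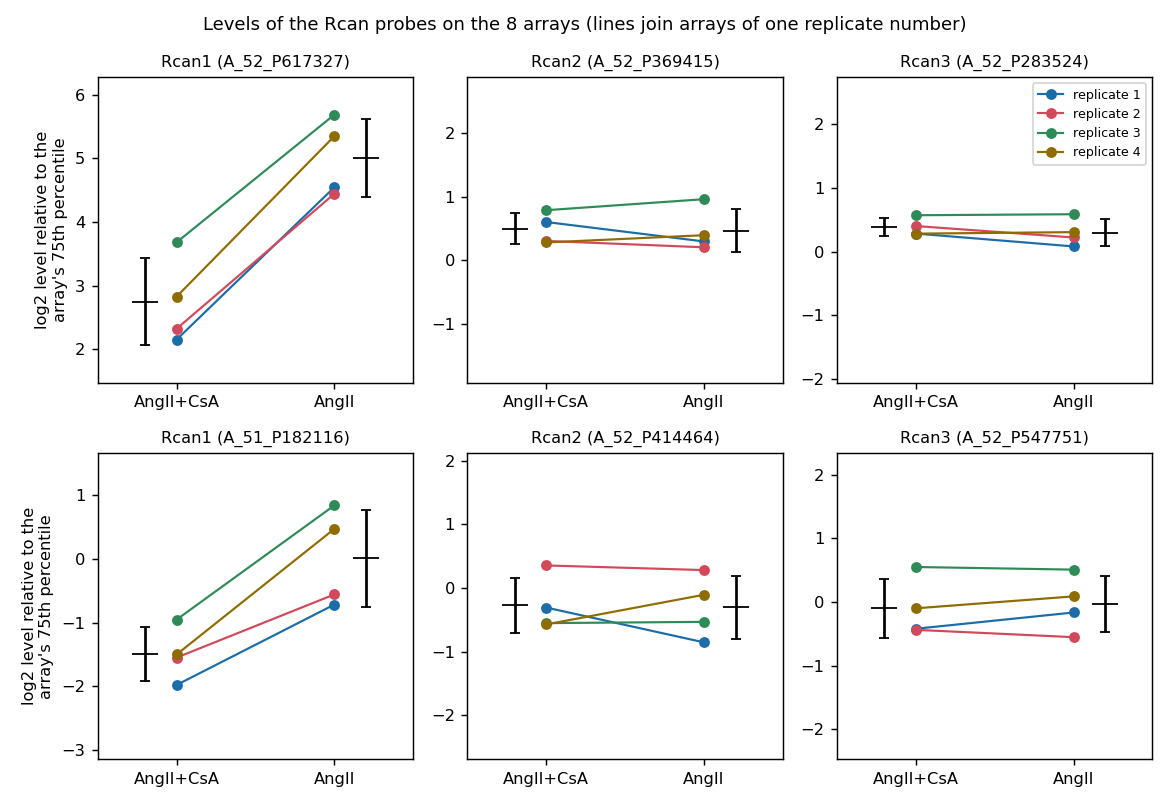
Level of each of the 6 Rcan probes on the 8 arrays, as log2 relative to the 75th percentile of the array, with AngII+CsA left of AngII, lines joining the 2 arrays of one replicate number, and black marks giving the mean and SD of 4 arrays. All panels span the same number of log2 units, and the lines climb steeply towards AngII in the 2 Rcan1 panels, with within-pair differences of -2.52 to -0.99, while the Rcan2 and Rcan3 lines cross or run level.

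Whether the Rcan1 difference passed a test across the array depended on how the pairs were treated. Limma on the groups alone called 0 of the 6 Rcan probes and 0 of the 19531 tested probes (0% lower and 0% higher) at an adjusted p of 0.05. The adjusted p of both Rcan1 probes was 0.9999 in that limma fit, although A_52_P617327 ranked 1st and A_51_P182116 ranked 5th of all probes by p. At an unadjusted p of 0.05 that fit passed 59 probes, of which 50 were lower, and both Rcan1 probes were among them. With the replicate number as a block, limma called 2 probes lower (0.0102%) and 0 higher (0%), and Rcan1 A_52_P617327 was one of the 2, at an adjusted p of 0.0214. The other was Serpinb1c. The interval of the A_52_P617327 difference was -3.16 to -1.36 on the groups alone and -2.57 to -1.95 with the block (95%). For A_51_P182116 the blocked limma fit gave an adjusted p of 0.241 and an interval of -1.95 to -1.06, against -2.37 to -0.64 on the groups alone. With the replicate as a random block, limma called 8 probes lower (0.041%), and both Rcan1 probes were among them, at adjusted p-values of 0.000506 and 0.0192.

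Tests of each probe by itself reached the limit of the design for Rcan1. The exact two-sided permutation test of 4 against 4 arrays gave p = 0.0286 for each Rcan1 probe, the smallest value this design allows, and exact sign flips over the 4 pairs gave 0.125, likewise the smallest they can give. Groups that did not overlap, with AngII+CsA lower, were found for 2 of the 6 Rcan probes and for 59 of all probes (0.302%), and with AngII+CsA higher for 0 Rcan probes and 18 of all probes (0.0922%). A lower level in 4 of 4 pairs was found for the same 2 Rcan probes and for 1846 of all probes (9.45%). A higher level in 4 of 4 pairs was found for 0 Rcan probes and for 972 of all probes (4.98%). The other 4 Rcan probes had differences of both signs within the pairs, as had 85.4% of all probes. By size of decrease, A_52_P617327 ranked 1 and A_51_P182116 ranked 9 among the 19531 probes, of which 39 had a difference below -1, and 97.2% lay within 0.5 of 0.

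**Figure D3:**
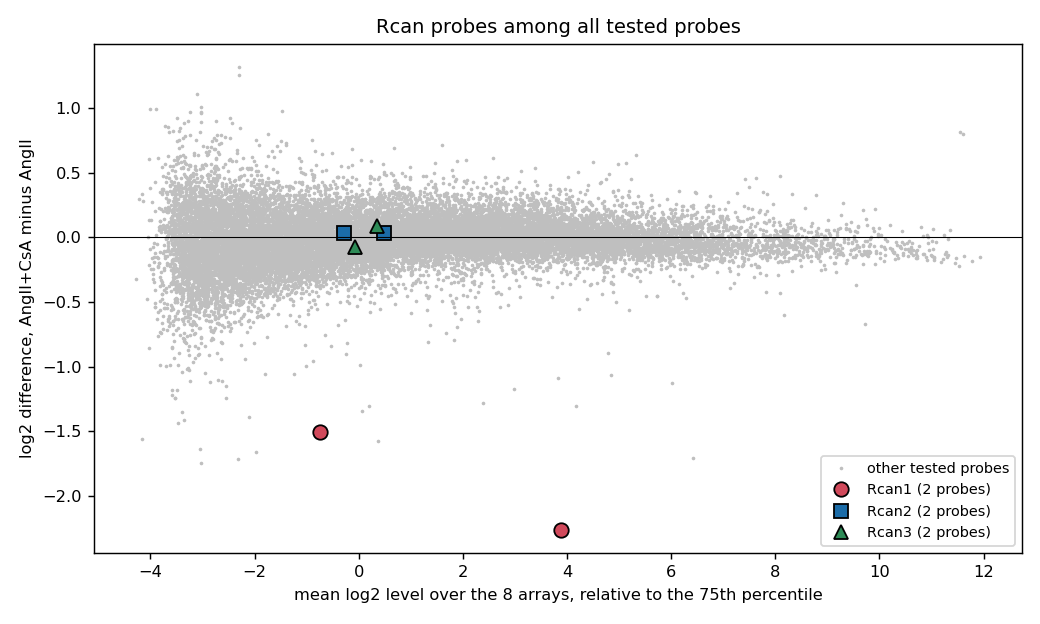
Difference between AngII+CsA and AngII on the log2 scale against the mean level over the 8 arrays, with grey points for the tested probes and large symbols for the 6 Rcan probes. The Rcan1 probes lie at -2.26 and -1.51, the first below every other probe, and the Rcan2 and Rcan3 probes lie within 0.09 of 0.

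The pairs also differed from each other in their Rcan1 level. The mean of a pair at A_52_P617327 was 3.35, 3.38, 4.68 and 4.09 for pairs 1 to 4, with an SD of 0.64, while the SD of the within-pair differences was 0.24. At A_51_P182116 the pair means were -1.35, -1.05, -0.05 and -0.51, so by level pair 3 was the highest and pair 1 the lowest at both probes. The 75th percentile that a level has subtracted was lowest on the arrays of pair 3. By processed signal, at both probes, culture 3 was the highest in AngII+CsA and culture 4 in AngII, and culture 1 was the lowest in both. Over the 8 arrays the correlation of the 2 Rcan1 probes was r = 0.97, and it was 0.91 after the mean of each group had been taken off. The arrays share slides in pairs, and the correlation is given as a description. Since each number has a slide of its own, a spread between cultures and a spread between slides cannot be told apart.

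The 2 Rcan1 probes differed in the size of the drop. The log2 ratio of A_52_P617327 to A_51_P182116 within an array was 4.13, 3.87, 4.63 and 4.33 in AngII+CsA cultures and 5.26, 5.00, 4.84 and 4.87 in AngII cultures. The ratio was lower in each AngII+CsA culture than in any AngII culture, by -0.75 on average, and by -1.13, -1.13, -0.21 and -0.55 within the pairs. The exact two-sided permutation p was 0.0286, and 0.0857 after adjustment over the 3 genes whose probes were compared, so the difference did not pass the threshold. Pairs 1 and 2 held most of it. With another background correction (normexp) the difference between the probes was -1.22, since the drop of the dim probe A_51_P182116 was then -0.80. That correction adds an offset of 50 to each signal, which shrinks log2 differences most at dim probes. The processed signal of A_51_P182116 was 26.0 to 144, so the value of -1.22 is not further evidence that the probes differ.

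Rcan2 showed no detectable difference with cyclosporin at either probe. At A_52_P369415 the levels were 0.60, 0.30, 0.79 and 0.28 in AngII+CsA cultures and 0.30, 0.20, 0.96 and 0.40 in AngII cultures. By processed signal, before scaling, the AngII+CsA cultures (145.8 to 155.6) lay above the AngII cultures (106.2 to 144.1). By level the groups overlapped, with means of 0.49 ± 0.24 in AngII+CsA cultures and 0.46 ± 0.34 in AngII cultures (SD, n = 4 each). The difference was 0.03, with within-pair values of 0.31, 0.10, -0.17 and -0.11, an interval of -0.27 to 0.33 with the block, an adjusted p of 0.981 in the blocked limma fit and an exact permutation p of 0.886. At A_52_P414464 the levels were -0.31, 0.35, -0.55 and -0.57 in AngII+CsA cultures and -0.85, 0.28, -0.53 and -0.11 in AngII cultures. The means were -0.27 ± 0.43 in AngII+CsA cultures and -0.30 ± 0.50 in AngII cultures (SD, n = 4 each), again with overlapping groups. The difference was 0.03, with within-pair values of 0.55, 0.07, -0.02 and -0.47 and an interval of -0.38 to 0.45 with the block. The blocked limma fit gave an adjusted p of 0.982 and the exact permutation test p = 0.914. The blocked intervals bound a change at 1.25-fold at the first probe and 1.37-fold at the second. On the groups alone the intervals were wider, -0.54 to 0.60 at A_52_P369415 and -0.68 to 0.75 at A_52_P414464. In that design a larger change is not excluded.

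The 2 Rcan2 probes did not follow each other across the pairs. Pair 3 had the highest mean level at A_52_P369415, 0.87, and pair 2 the lowest, 0.25. The subtracted 75th percentile was lowest on the arrays of pair 3 and highest on those of pair 2. By processed signal culture 3 was the lowest of AngII+CsA (145.8) and culture 2 the highest of AngII (144.1). At A_52_P414464 pair 2 had the highest mean level, 0.32, and the other 3 lay between -0.58 and -0.34. The correlation of the 2 probes over the 8 arrays was r = -0.39, as a description. The log2 ratio of A_52_P369415 to A_52_P414464 was 0.91, -0.05, 1.34 and 0.85 in AngII+CsA cultures and 1.15, -0.08, 1.49 and 0.50 in AngII cultures. Replicate 2 stood low in both groups and replicate 3 high in both, while the ratio itself did not differ detectably between the groups (exact permutation p = 1, n = 4 each).

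Rcan3 likewise had groups that overlapped by level at both probes. At A_52_P283524 the levels were 0.29, 0.40, 0.57 and 0.28 in AngII+CsA cultures and 0.08, 0.22, 0.59 and 0.31 in AngII cultures. The means were 0.39 ± 0.14 in AngII+CsA cultures and 0.30 ± 0.21 in AngII cultures (SD, n = 4 each), a difference of 0.09. The within-pair values were 0.20, 0.18, -0.02 and -0.02, with an interval of -0.17 to 0.34 with the block, an adjusted p of 0.943 in the blocked limma fit and an exact permutation p of 0.514. On the groups alone its interval was wider, -0.41 to 0.58. Of the 6 probes this one varied least, with a range of pair means of 0.40. At A_52_P547751 the levels were -0.42, -0.44, 0.55 and -0.10 in AngII+CsA cultures and -0.16, -0.55, 0.51 and 0.09 in AngII cultures. The means were -0.10 ± 0.46 in AngII+CsA cultures and -0.03 ± 0.45 in AngII cultures (SD, n = 4 each). The difference was -0.07, a sign that turned to 0.03 when arrays were scaled to their median and to 0.14 without scaling. Relative to the median of all probes it was -0.05 in all 3 settings. Its within-pair values were -0.26, 0.11, 0.04 and -0.19, its interval with the block was -0.35 to 0.21, its adjusted p in the blocked limma fit was 0.953 and its exact permutation p was 0.83. The interval of A_52_P547751 on the groups alone was -0.77 to 0.63. Pair 3 had the highest mean level at both Rcan3 probes, 0.58 and 0.53, and the probes correlated at r = 0.71 over the 8 arrays. By processed signal culture 2 was the highest at A_52_P283524 in AngII+CsA (165) and in AngII (146). At A_52_P547751 culture 3 was the highest in AngII+CsA (124) and culture 4 in AngII (110).

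**Figure D4:**
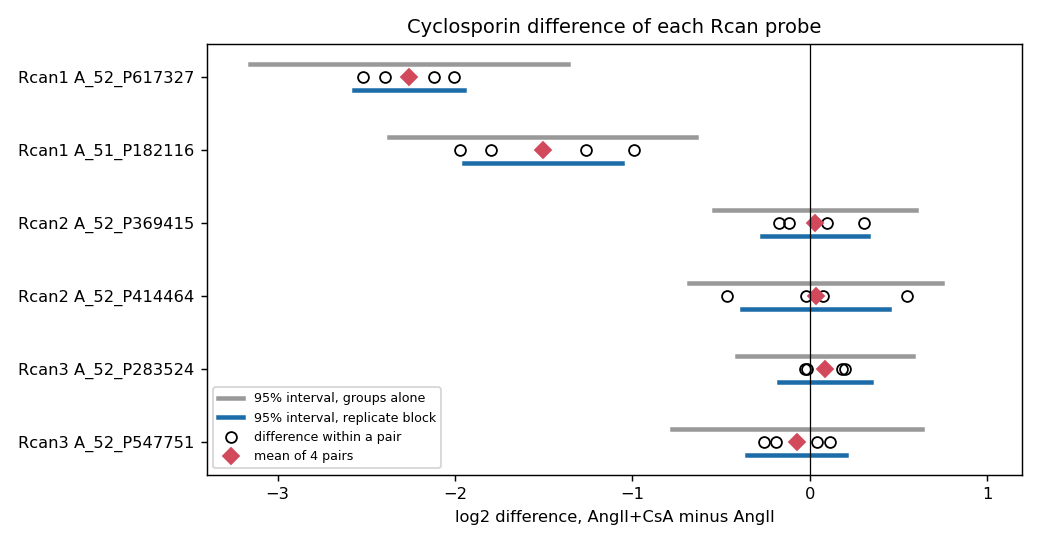
Difference between AngII+CsA and AngII on the log2 scale for each Rcan probe, with open circles for the 4 pairs, a diamond for their mean, and bars for the 95% interval on the groups alone (grey) and with the replicate block (blue). Both intervals of the Rcan1 probes lie below 0, the nearest ending at -0.64, and both intervals of the Rcan2 and Rcan3 probes hold 0.

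The differences between the genes were tested directly as ratios of their brightest probes within an array. The change of Rcan1 minus that of Rcan2 was -2.29, with within-pair values of -2.70, -2.22, -1.83 and -2.41. The change of Rcan1 minus that of Rcan3 was -2.35, with within-pair values of -2.59, -2.30, -1.99 and -2.50. Each gave an exact two-sided permutation p of 0.0286 and 0.0429 after adjustment over the 3 pairs of genes, and both were negative in 4 of 4 pairs. That test leaves out the pairing: exact sign flips over the pairs gave p = 0.125 for each, the smallest that 4 pairs allow, which does not pass. The change of Rcan2 minus that of Rcan3 was -0.06 with an exact permutation p of 0.686. A ratio within an array does not move with the factor by which the array is scaled, so these values are the same with percentile, median or no scaling. A ratio shows unequal change and not that Rcan2 or Rcan3 stayed the same.

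The genes most like Rcan1 in pattern were sought by Pearson's r with A_52_P617327 over the 8 arrays, among 9920 genes above background on all of them. The first 3 were Serpinb1a (r = 0.99), Serpinb1c (0.97) and Serpinb1b (0.96), closely related genes of the serpin family of protease inhibitors, whose probes could share RNA. They differed by -1.31, -1.57 and -1.34 between AngII+CsA and AngII cultures. Scube2 (0.93) and Mdm4 (0.91), which encodes a regulator of p53, came next with differences of -0.27 and -0.16. In all, 6 genes had r above 0.9 with Rcan1, 270 with Rcan2 and 287 with Rcan3. After the mean of each pair had been taken off, r rested on the within-pair differences alone. By that measure 232 genes had r above 0.9 with Rcan1, 759 with Rcan2 and 410 with Rcan3, so the counts depended on the measure. The first 5 for Rcan1 by that measure were Olfr74, Crct1, Pmvk, Serpinb1c and Nkd2, with differences between -1.57 for Serpinb1c and -0.25 for Olfr74. Likeness in this sense means that the differences ran in proportion over the 4 pairs and says nothing of their size. By r on the levels, the nearest to Rcan2 were Rfxap, Foxo1 and Utp25 (r of 0.98 to 0.99), with differences of 0.00, 0.10 and 0.06. For Rcan3 they were Stk10, Fgf2 and Vcl (r = 0.99 each), with differences of 0.21, 0.16 and 0.24. With 8 arrays, which share slides in pairs, many genes reach such values, and they are given without a test.

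The rest of the calcineurin pathway did not show a difference of the size seen for Rcan1. Of 44 genes on 6 lists, 36 were tested, each by its brightest tested probe, and limma called 0 of them in either design, without or with the block. On these lists 20 genes had a negative and 16 a positive difference, with a median of -0.01 and a range of -0.67 to 0.30, beside a median of -0.03 over 14883 genes. All 5 calcineurin subunit genes were tested, with a median of 0.05. The catalytic subunit gene Ppp3ca had a difference of 0.22 and was higher in 4 of 4 pairs, and the regulatory subunit gene Ppp3r1 had a difference of 0.30 and was higher in 3 of 4. Among 6 other genes for calcineurin-binding proteins the median was -0.02, and Ppia, which encodes cyclophilin A, the partner of cyclosporin, had a difference of 0.02. The 4 tested NFAT genes had a median of -0.01, with values of 0.16 for Nfat5, -0.11 for Nfatc4, -0.03 for Nfatc3 and 0.02 for Nfatc2. A dimmer tested probe of Nfatc2 differed by 0.16. The 4 tested kinases that phosphorylate NFAT, Gsk3b, Dyrk1a, Csnk1a1 and Gsk3a, lay between -0.07 and 0.08. Of the 4 genes whose products modify RCAN1, the kinase gene Map3k7 had a difference of -0.23 and was lower in 4 of 4 pairs, and Btrc, for a ubiquitin ligase subunit, had 0.14.

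Known NFAT target genes other than Rcan1 had a median of -0.22, with 8 of 13 tested genes (61.5%) negative, beside 56.6% of all 14883 genes. Of 16 listed genes 13 were tested, and Ptgs2, Egr3 and Il2 were not. The 4 with the smallest p in the blocked fit were each lower in 4 of 4 pairs, a trait that picking by this p favours. Vcam1, an adhesion molecule for leukocytes, had a mean level of 9.39 in AngII+CsA cultures and 10.06 in AngII cultures, a difference of -0.67. The chemokine gene Ccl2 averaged 4.70 in AngII+CsA cultures and 5.20 in AngII cultures, a difference of -0.50. Adamts1, which encodes a matrix protease, differed by -0.36 and the nuclear receptor gene Nr4a2 by -0.65. Next by p came Nr4a1, with a difference of -0.43 and lower in 3 of 4 pairs, and Il6, with -0.58 and lower in 4 of 4. Their adjusted p in the blocked limma fit was 0.927 each, and in all 13 genes the groups overlapped. On the other side, Myc, a growth regulator, had a difference of 0.26 and was higher in 4 of 4 pairs, and the cation channel gene Trpc6 had 0.30. Myc, Trpc6, Nr4a1 and Il6 were named after their values were seen.

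**Figure D5:**
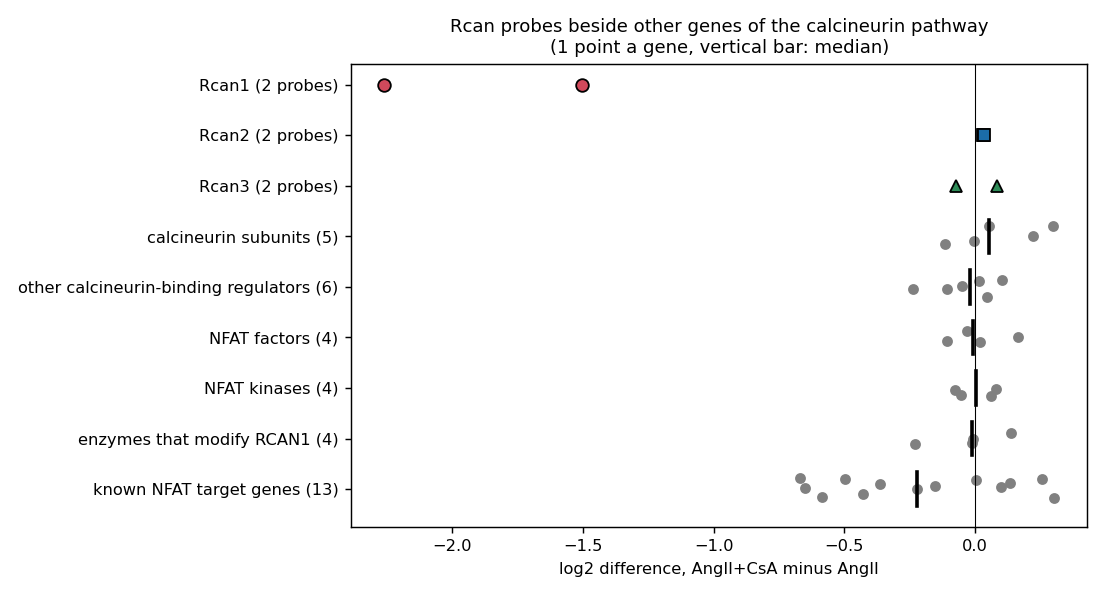
Difference between AngII+CsA and AngII on the log2 scale for the Rcan probes and for the tested genes of 6 calcineurin pathway lists, 1 point a gene, with a vertical bar at the median of each list and the number of genes in brackets. Genes of the lists lie between -0.67 and 0.30, and the Rcan1 probes lie at -2.26 and -1.51.

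None of the tested genes beside Rcan1 on its chromosome showed a drop of its size. Of the 5 genes on each side in the RefSeq annotation, 4 were tested, and their levels were low. Fam243, 2410124H12Rik and Clic6 had mean levels of -2.78, -3.21 and -3.21 in AngII cultures. So near the background a drop like that of Rcan1 could hardly be seen. Kcne1, for a potassium channel subunit, had a mean level of -1.51 in AngII+CsA cultures and -1.18 in AngII cultures, a difference of -0.33 that was lower in 4 of 4 pairs (adjusted p of 0.927 in the blocked limma fit). Fam243, 2410124H12Rik and Clic6 had differences of -0.13, 0.36 and 0.06, and limma called none of these 4 with or without the block. Counting protein-coding genes alone, a choice made after the values were seen, added 4 tested neighbours. Their differences were -0.06 for Smim11, 0.29 for the transcription factor gene Runx1, -0.03 for Setd4 and -0.18 for Cbr3, which was lower in 4 of 4 pairs, and limma called none of them. In AngII cultures Smim11, Runx1 and Setd4 averaged 1.14, 3.65 and 3.97, and Cbr3 averaged -1.61.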

How the data were processed

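RNA of 8 mouse aortic smooth muscle cultures, 4 AngII+CsA and 4 AngII, was measured on 1-colour Agilent arrays. The deposited scanner tables hold the processed signal, a fluorescence intensity after background subtraction, made with Agilent Feature Extraction 9.5.3.1 per the file headers, together with flags for outlier spots and for signal well above background. The deposited value table holds the authors' processed values, on a log2 scale by comparison with the scanner values, and served as an alternative.

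From the scanner tables, log2 intensity minus the 75th percentile of each array was computed, spots of a probe were averaged without outlier flags, and the 19531 probes well above background on at least 4 of 8 arrays were fitted with limma 3.58.1 in R 4.3.3 (Benjamini-Hochberg adjustment, two-sided, threshold 0.05). The main design held the groups alone. The headers place arrays with the same number on one slide, and same-numbered arrays deviated together (r of 0.70 to 0.86 for the 4 pairs, -0.76 to 0.25 for other combinations), so arrays of one number were treated as pairs, and the blocked fit is given beside it. Exact permutation tests were used for single probes and ratios. Symbols of 22951 probes came from RefSeq by accession and of 6659 by symbol, and 11564 kept the name in the files. The series' design text names 4 independent cultures for each condition, and does not say whether both conditions used the same ones. The precision is limited by the number of arrays. The Rcan probes, the gene lists and the tests were chosen with earlier results of these data known. Pathway genes were named by the smallest p in the blocked fit, up to 4 a list, and similar genes by the highest r, up to 5 for Rcan1 and 3 for Rcan2 and Rcan3. Pathway genes, cell type markers and similar genes were each read at their brightest probe that passed the filter used. Alternatives covered scaling, background correction, filter, block, outlier flags, variance model, 1 probe a gene, the authors' table and leaving out arrays. The fit on the groups alone and the fit with the fixed replicate block were tested on simulated data. The random-block fit and the other alternatives were not.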

Additional observations from a re-analysis of the deposited data

How the results depend on the processing

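The Rcan1 drop kept its sign in every alternative run, and its call depended on the block. Rcan1 A_52_P617327 lay between -2.27 and -2.03 without the block and was called in none of those settings. With the block it was called at an adjusted p (limma) of 0.0214 (-2.26), 0.000506 as a random block (-2.26), 0.0133 with normexp (-2.03), 0.00187 for probes above background on all arrays (-2.26), 0.00122 with a variance trend (-2.26), 0.0131 for 1 probe a gene (-2.26), 0.0339 in the authors' table (-2.25) and 0.0251 without scaling (-2.05, chosen after seeing the data). The call was lost without the filter on dim probes (adjusted p 0.367). It was also lost in the blocked fit when any 1 pair was left out, with differences of -2.35 to -2.17 and adjusted p-values of 0.0741 to 0.441, and single arrays left out gave -2.57 to -2.03. A_51_P182116 was called with the random block (-1.51, adjusted p 0.0192 in limma). It lay between -1.75 and -1.23 without single arrays and between -1.68 and -1.35 without single pairs. With normexp and its offset of 50 it lay at -0.80. Sign flips over the pairs cannot go below 0.125, so the Rcan1 probes (-2.26, -1.51) and the ratios against Rcan2 (-2.29) and Rcan3 (-2.35) did not pass by them. In the blocked settings above, in the same order, 2, 8, 3, 4, 6, 4, 2 and 1 probes were called lower, against 0 on the groups alone.

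The sign of 3 of the 4 small differences turned in some setting. Rcan3 A_52_P283524 kept its sign in all settings run, between 0.013 and 0.29. Rcan2 A_52_P369415 ran from -0.068 to 0.20 without single arrays and from -0.062 to 0.097 in the replicate block without single pairs. Rcan2 A_52_P414464 was -0.023 with normexp, with or without the replicate block, and ran from -0.17 to 0.23 and from -0.14 to 0.20. Without scaling both Rcan2 probes lay at 0.24, and at 0.05 relative to the median of all probes. Rcan3 A_52_P547751 was 0.028 with median scaling and 0.14 without scaling, with or without the replicate block, and ran from -0.29 to 0.11 and from -0.13 to -0.01. The ratio of the Rcan2 probes was 0.095 with normexp and ran from -0.12 to 0.075 without single pairs. Median scaling moved the median of all probes by 0.10 and no scaling by 0.21; relative to that median, A_52_P547751 stayed at -0.05 and A_52_P617327 at -2.24 in both. The block changed no call of Rcan2 or Rcan3.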
